A study of Mus musculus with 6 samples.

Results

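White and brown adipocyte marker genes were examined in RNA-seq counts from 6 mouse hearts. The set was fixed by name as the 10 genes Adipoq, Cfd, Plin1, Lep, Retn, Fabp4, Cidec, Cidea, Ucp1 and Pparg, and each was found once among the 54532 genes of the count table. These genes mark adipocytes, which a whole heart can carry as epicardial fat, and the question was whether they differed between individual hearts or between genotypes. Whole hearts came from 3-month-old male mice on a C57BL/6 background, 3 of genotype α1r/rα2s/s (resistant, mice 368, 369 and 370) and 3 of genotype α1s/sα2s/s (sensitive, mice 379, 380 and 381). The α1r/rα2s/s mice carry the rodent Na/K-ATPase α1, which binds cardiotonic steroids weakly, and the α1s/sα2s/s mice carry α1 engineered for high affinity in every tissue. Both genotypes share α2s/s, the sensitive α2, and the labels give no treatment. Each heart was 1 library of 19309312 to 20470065 counts, and counts were scaled to library size with edgeR's TMM factors, as CPM. The share of mitochondrially encoded counts was 23.4% to 24.4% in α1r/rα2s/s and 25.0% to 26.0% in α1s/sα2s/s hearts, so it did not overlap between genotypes. In bulk RNA, fewer cells of a type cannot be told apart from less RNA per cell.

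White adipocytes store triglyceride in one large droplet and secrete adipokines such as adiponectin and leptin, while brown adipocytes hold many small droplets and burn fat for heat through the uncoupling protein Ucp1. Both depend on the nuclear receptor Pparg, which drives the genes of lipid uptake and storage. Around the heart, fat lies on the epicardium and along the large vessels. Some of these genes are also active in other cardiac cells, since capillary endothelial cells use Fabp4 to carry fatty acids to the muscle.

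The 10 genes did not behave as one group. Fabp4 took 91.3% to 93.2% of their summed counts, and Ucp1 had 0 counts in all 6 hearts. Adipoq, Cfd, Plin1, Retn and Cidec stood highest in 1 α1s/sα2s/s heart, mouse 379, and this heart was also the highest in Fabp4 and Pparg. Fabp4 was the only one of the 7 members tested to pass the threshold (adjusted p under 0.05, edgeR's quasi-likelihood test), and it rose in α1s/sα2s/s hearts by 0.39 on the log2 scale. In this comparison 1.44% of all 14866 tested genes passed, and 0.780% passed as higher in α1s/sα2s/s hearts. The call for Fabp4 was lost in 5 of the 6 fits that left out 1 heart.

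The promoters of 8 of the 10 members were matched by symbol in the RefSeq promoter table (build GRCm38.p6), which runs from 250 bases before to 50 bases after a transcription start and gave them 11 starts in all. The 3 given are those of a secreted, a droplet and a regulatory member whose levels shared their highest heart, mouse 379, and their lowest, mouse 370. Capitals mark CCAAT, and TTGCNNAA, a form of the sequence bound by C/EBP factors, which act with Pparg in adipocytes. Both strands were searched, and no capital stretches overlap. The Adipoq promoter (chr16:23146286-23146585, plus strand) held 3 CCAAT, whose first bases lay 34, 27 and 7 bases before the start, and no TTGCNNAA. The Plin1 promoter (chr7:79732727-79733026, minus strand) held TTGCNNAA 187 and 58 bases before the start. The downstream Pparg promoter (chr6:115421816-115422115, plus strand), from which the adipocyte isoform is made, held CCAAT 144 and 22 bases and TTGCNNAA 215 and 16 bases before the start.
Adipoq: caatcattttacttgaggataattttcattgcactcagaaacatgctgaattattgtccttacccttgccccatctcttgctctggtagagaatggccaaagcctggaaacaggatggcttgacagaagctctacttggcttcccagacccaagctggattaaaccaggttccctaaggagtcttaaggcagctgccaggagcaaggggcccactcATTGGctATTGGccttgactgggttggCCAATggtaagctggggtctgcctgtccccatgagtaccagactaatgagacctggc
Plin1: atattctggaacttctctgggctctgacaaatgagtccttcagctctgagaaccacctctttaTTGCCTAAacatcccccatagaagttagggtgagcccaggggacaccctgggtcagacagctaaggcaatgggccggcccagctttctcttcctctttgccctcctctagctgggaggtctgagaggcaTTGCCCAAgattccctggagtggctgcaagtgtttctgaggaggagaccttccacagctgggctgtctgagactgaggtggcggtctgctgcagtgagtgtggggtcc
Pparg: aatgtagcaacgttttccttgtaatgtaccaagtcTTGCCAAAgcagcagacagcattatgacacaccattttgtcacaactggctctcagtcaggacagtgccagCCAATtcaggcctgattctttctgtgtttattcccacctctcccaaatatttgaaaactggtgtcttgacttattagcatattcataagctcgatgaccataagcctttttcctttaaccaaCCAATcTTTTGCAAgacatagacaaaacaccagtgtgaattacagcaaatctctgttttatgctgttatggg
TTGCNNAA was in 4 of the 11 member promoters and in 10.8% of all 32851 promoters of the same length. CCAAT was in 3 of the 11 and in 37.4% of all promoters. AGGTCA, a sequence bound by many nuclear receptors, was in 3 of the 11 and in 16.3% of all promoters. Repeated with 1 base between, as Pparg and its partner receptor bind it, the exact sequence was in none of the 11 and in 0.0396% of all promoters.

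Among the secreted products, Adipoq (ENSMUSG00000022878, chromosome 16 of GRCm38 from 23146536 to 23158028) encodes adiponectin, a hormone that raises fatty acid use in muscle and liver. It had 12, 13 and 1 counts in the α1r/rα2s/s hearts of mice 368, 369 and 370, and 25, 9 and 13 counts in the α1s/sα2s/s hearts of mice 379, 380 and 381. The heart of mouse 370 was low and that of mouse 379 high, and the other 4 hearts of both genotypes lay together. The exact 95% Poisson interval of the single count in mouse 370 was 0.0253 to 5.57 counts and that of the 25 counts in mouse 379 was 16.2 to 36.9 counts, which cover counting error only. In CPM the means were 0.415 ± 0.317 in α1r/rα2s/s and 0.796 ± 0.398 in α1s/sα2s/s hearts (SD, n = 3), a log2 fold change of 0.93 with a 95% interval from -0.45 to 2.30 (adjusted p = 0.545, edgeR). Without mouse 370 the log2 fold change was 0.42, and without mouse 379 it was 0.46.

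Cfd (ENSMUSG00000061780, chromosome 10 from 79890853 to 79892655) encodes adipsin, the serine protease complement factor D, which adipocytes secrete in large amounts. It had 55, 75 and 46 counts in α1r/rα2s/s hearts and 159, 35 and 37 counts in α1s/sα2s/s hearts. The heart of mouse 379 was 2.20 times the next heart in CPM, while mice 380 and 381 of the same genotype were the lowest of all 6. The means were 2.84 ± 0.662 and 3.88 ± 3.47 CPM (SD, n = 3), with a log2 fold change of 0.46 (95% interval -0.50 to 1.41, adjusted p = 0.685, edgeR). Without mouse 379 its sign turned, with a log2 fold change of -0.59 (adjusted p = 0.446, edgeR).

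Lep (ENSMUSG00000059201, chromosome 6 from 29060220 to 29073877), the gene of the satiety hormone leptin, had 2 counts in mouse 370 and 0 in each other heart. A count of 0 allows up to 0.143 to 0.158 CPM per heart, taken as 3 counts, so Lep was at or under this limit in every heart and no fold is given. Retn (ENSMUSG00000012705, chromosome 8 from 3655770 to 3660110) encodes resistin, which mouse adipocytes secrete. It had 0, 7 and 4 counts in α1r/rα2s/s hearts and 10, 1 and 0 in α1s/sα2s/s hearts, with the highest value again in mouse 379. Lep, Retn and Ucp1 did not pass the filter on low counts and had no fit. The mean CPM of Retn, 0.178 in α1r/rα2s/s and 0.183 in α1s/sα2s/s hearts, gave p = 1 in an exact two-sided permutation test, which cannot go under 0.1 with 3 hearts against 3.

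**Figure D1:**
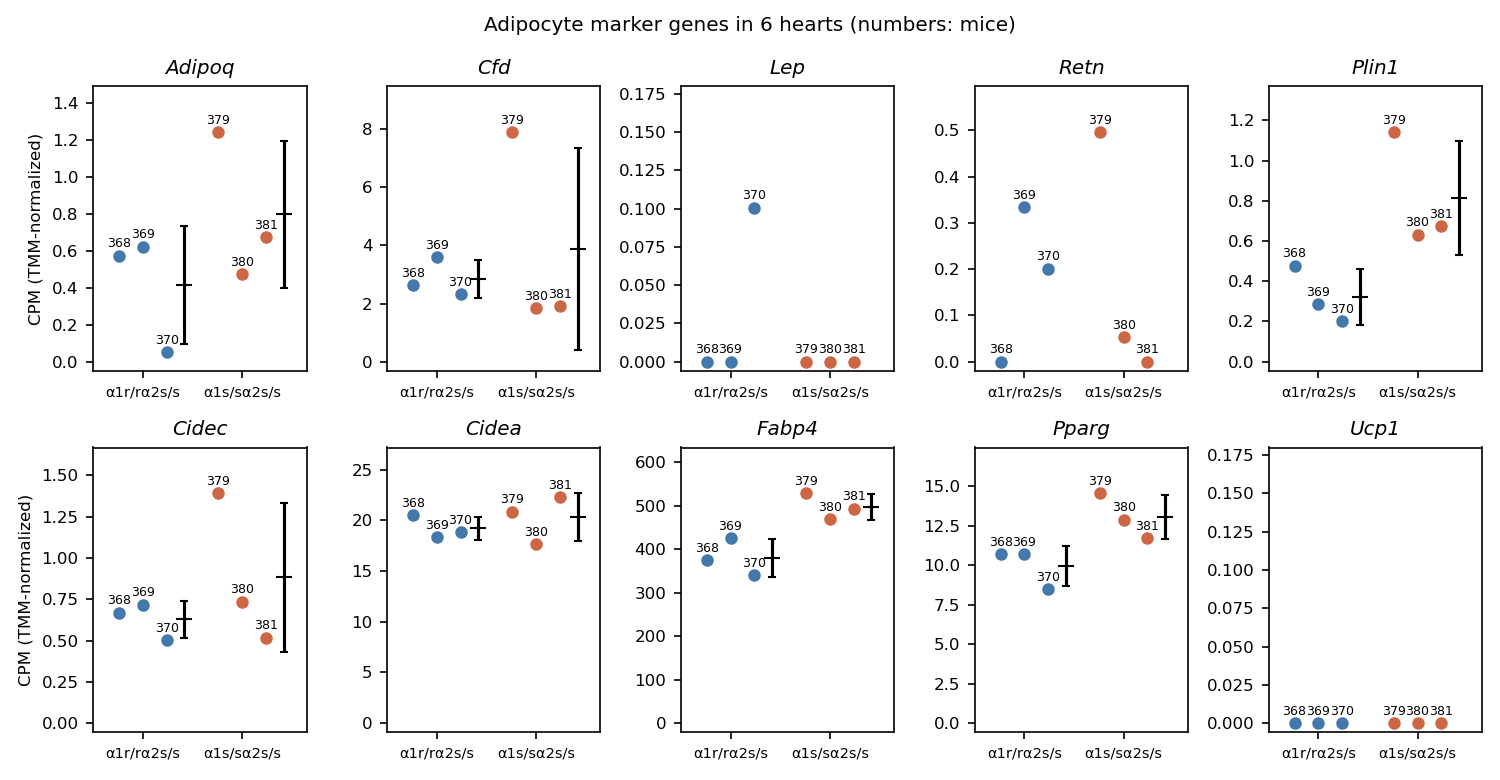
CPM of the 10 adipocyte marker genes in each heart, numbered by mouse, for α1r/rα2s/s (blue) and α1s/sα2s/s (orange), each panel on its own linear axis. Black bars are mean ± SD of 3 hearts and are left out for Lep, Retn and Ucp1, whose counts were too few. Mouse 379 was the highest in 7 panels, and the genotypes did not overlap for Plin1, Fabp4 and Pparg.

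Among the lipid droplet proteins, Plin1 (ENSMUSG00000030546, chromosome 7 from 79720218 to 79732903) encodes perilipin 1, the coat protein that guards the adipocyte droplet from lipases. It had 10, 6 and 4 counts in α1r/rα2s/s hearts and 23, 12 and 13 counts in α1s/sα2s/s hearts. All α1s/sα2s/s hearts were above all α1r/rα2s/s hearts in CPM, with means of 0.816 ± 0.283 and 0.322 ± 0.142 (SD, n = 3). This was the largest difference among the 7 tested members, with a log2 fold change of 1.32 and a 95% interval from 0.18 to 2.47, but it did not pass the threshold (adjusted p = 0.266, edgeR). Plin1 passed the filter on low counts only through its α1s/sα2s/s hearts, which favours a rise among the genes tested. Scaled to library size, the 10 counts of mouse 368 lay just under the filter. The counting intervals of the hearts nearest to each other, 4.80 to 18.4 counts for mouse 368 and 6.20 to 21.0 counts for mouse 380, overlapped.

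Cidec (ENSMUSG00000030278, chromosome 6 from 113424634 to 113435760) encodes the protein that fuses small droplets into the large one of white fat. It had 14, 15 and 10 counts in α1r/rα2s/s hearts and 28, 14 and 10 in α1s/sα2s/s hearts. Mouse 379 was 1.89 times the next heart in CPM, and the other 5 hearts of both genotypes overlapped. The log2 fold change was 0.49 (95% interval -0.56 to 1.53, adjusted p = 0.698, edgeR), and without mouse 379 it was -0.0040.

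Cidea (ENSMUSG00000024526, chromosome 18 from 67343564 to 67367794), the relative of Cidec that is typical of brown fat, was much more abundant. It had 429, 384 and 375 counts in α1r/rα2s/s hearts and 420, 336 and 430 in α1s/sα2s/s hearts, so the genotypes overlapped and mouse 379 did not stand out. The means were 19.2 ± 1.12 and 20.3 ± 2.37 CPM (SD, n = 3), and the log2 fold change of 0.08 had a 95% interval from -0.16 to 0.31 (adjusted p = 0.802, edgeR). Of its exon bases, 237 lie within the span of B430212C06Rik on the other strand, a gene of 42 to 89 counts per heart. Whether exons of both genes overlap was not tested, and reads in any such overlap cannot be told apart without strand.

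Ucp1 (ENSMUSG00000031710, chromosome 8 from 83290352 to 83298452), the defining gene of brown fat, had 0 counts in every heart, which allows up to 0.143 to 0.158 CPM per heart. Its relative Ucp3 of heart and skeletal muscle had 1410 to 3796 counts, lowest in mouse 370 and highest in mouse 379, with a log2 fold change of 0.50 (adjusted p = 0.201, edgeR). The label of a brown fat marker was thus not met by detected Ucp1, and Cidea was at a steady level in hearts where Ucp1 had no count.

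Fabp4 (ENSMUSG00000062515, chromosome 3 from 10204088 to 10208576) encodes the fatty acid binding protein of adipocytes and capillary endothelium. It had 7839, 8913 and 6760 counts in α1r/rα2s/s hearts and 10637, 8929 and 9506 in α1s/sα2s/s hearts. In CPM the α1r/rα2s/s hearts were at 374, 426 and 340 and the α1s/sα2s/s hearts at 528, 470 and 493, without overlap. The means were 380 ± 43.4 and 497 ± 29.4 CPM (SD, n = 3), a rise of 1.31-fold in α1s/sα2s/s hearts with a log2 fold change of 0.39 (95% interval 0.21 to 0.57, adjusted p = 0.0358, edgeR). DESeq2, the tool of the study, gave it an adjusted p of 0.000211, with 3.56% of the genes it adjusted called. It also adjusted Cfd, Cidea and Pparg and called none of them, and it gave the remaining members no adjusted p. When 1 heart was left out, edgeR's adjusted p was from 0.00996 to 0.152 and stayed under 0.05 only without mouse 369. Without mouse 379, the log2 fold change was 0.34 (adjusted p = 0.127, edgeR). With libraries counted without mitochondrially encoded and globin genes it was 0.39 (adjusted p = 0.030, edgeR).

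Pparg (ENSMUSG00000000440, chromosome 6 from 115360951 to 115490399), the regulator of the adipocyte programme, had 224, 224 and 169 counts in α1r/rα2s/s hearts and 293, 245 and 226 in α1s/sα2s/s hearts. The α1s/sα2s/s hearts were all above the α1r/rα2s/s hearts in CPM, with means of 13.1 ± 1.42 and 9.96 ± 1.27 (SD, n = 3). Its log2 fold change of 0.39 equalled that of Fabp4 to 2 decimals, with a wider 95% interval from 0.09 to 0.69, and did not pass the threshold (adjusted p = 0.204, edgeR). Gene counts do not separate the adipocyte isoform of Pparg from the others.

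Over the members, 3 of the 7 tested (Plin1, Fabp4 and Pparg) had all α1s/sα2s/s hearts above all α1r/rα2s/s hearts, against 10% of all tested genes, and 20% of all tested genes had no overlap in either direction. All 7 had a log2 fold change above 0, against 48.4% of all tested genes, with a median of 0.46 against -0.0078 over all tested genes. The unadjusted p was under 0.05 for the same 3 members, against 14.5% of all tested genes. Plin1 was among the 7 only because its α1s/sα2s/s hearts passed the filter on low counts. The filter thus favoured its rise, and these counts over the members are a description and not a test. Without mouse 379 only 5 of the 7 were above 0 and their median was 0.31, so the counts by direction depended on this heart. In single hearts, Adipoq, Cfd, Plin1 and Cidec varied more than Fabp4, Cidea and Pparg. Counting error is wider at the 1 to 28 counts per heart of Adipoq, Plin1 and Cidec, and its part in this spread was not tested.

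**Figure D2:**
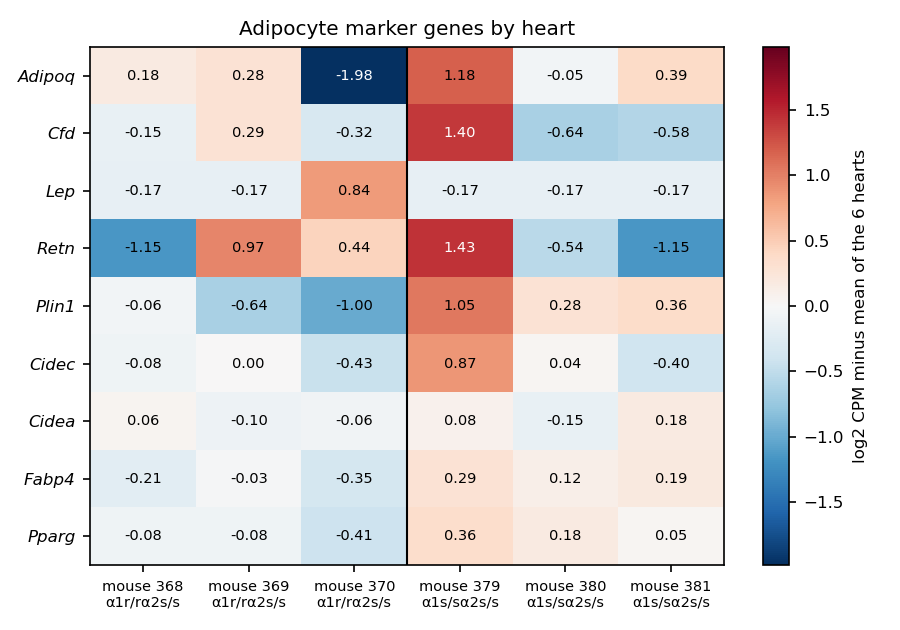
Log2 CPM of each adipocyte marker gene other than Ucp1 (rows) in each heart (columns) minus the mean of the 6 hearts, with a prior count of 2, red above and blue below the mean. Mouse 379 was 1.18 above the mean in Adipoq, 1.40 in Cfd and 1.05 in Plin1, mouse 370 was -1.98 in Adipoq, and Cidea stayed between -0.15 and 0.18 in all hearts.

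The hearts were next compared by the 7 members with under 10 CPM in every heart (Adipoq, Cfd, Plin1, Lep, Retn, Cidec and Ucp1), a grouping chosen after their values were seen. They summed to 91, 116 and 67 counts in α1r/rα2s/s hearts and to 245, 71 and 73 counts in α1s/sα2s/s hearts. Mouse 379 was above the other 5 hearts, and mice 380 and 381 lay within the range of the α1r/rα2s/s hearts. The ratio of Fabp4 to Adipoq counts was 653, 686 and 6760 in α1r/rα2s/s and 425, 992 and 731 in α1s/sα2s/s hearts. The ratio of Cidec to Adipoq counts was between 0.769 and 1.56 in the 5 hearts other than mouse 370, where it was 10.

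Across the 6 hearts, log2 CPM of Adipoq was compared with that of the other 6 tested members. The relation with Fabp4 had Pearson's r = 0.82 (exact permutation p = 0.0181, adjusted p = 0.0944 over 6 relations) and Spearman's rho = 0.83 (exact permutation p = 0.0583, adjusted p = 0.263). Without mice 370 and 379, the hearts farthest from the median of Adipoq, r was 0.07. The hearts left had 9 to 13 Adipoq counts, too narrow a range for r without these mice to tell whether a relation held. This limit covers each r without these mice below. With Pparg r was 0.87 (exact permutation p = 0.0375, adjusted p = 0.0944) and rho 0.66 (exact permutation p = 0.175, adjusted p = 0.263), and r was -0.59 without these mice. With Plin1 r was 0.81 (exact permutation p = 0.0472, adjusted p = 0.0944) and rho 0.77 (exact permutation p = 0.103, adjusted p = 0.263), and r was -0.21 without them. Cfd, Cidec and Cidea had r of 0.53, 0.69 and 0.42 (exact permutation p = 0.244, 0.21 and 0.454, with adjusted p of 0.293, 0.293 and 0.454) and rho of 0.54, 0.49 and 0.66 (exact permutation p = 0.297, 0.356 and 0.175, with adjusted p of 0.356, 0.356 and 0.263). Without mice 370 and 379, r was 0.32 for Cfd, -0.74 for Cidec and 0.74 for Cidea. No relation passed after adjustment.

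Among 12104 other genes whose log2 CPM averaged 1 or more, those whose log2 CPM over the 6 hearts was most like that of Adipoq were listed as a description. They were Fancb, Cenpb, Foxp1, Hgsnat, Ptprr, Aqp7, Plxdc2, Trim32, Ucp3 and Cd81, with Pearson's r from 0.976 to 0.998 as the highest of so many genes. Aqp7, the glycerol channel of adipocytes that cardiac muscle also uses, was at 43.0, 39.7 and 26.2 CPM in α1r/rα2s/s hearts and 52.5, 41.5 and 42.1 CPM in α1s/sα2s/s hearts. None of the 10 passed the threshold between genotypes, with adjusted p from 0.201 to 0.77 in edgeR.

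To compare genes with each other, CPM were divided by the length in kilobases of the longest coding transcript in GENCODE M21. The mean level per kilobase in α1r/rα2s/s hearts was 424 for Fabp4, 17.2 for Cidea, 4.69 for Pparg, 3.08 for Cfd, 0.366 for Cidec, 0.321 for Adipoq, 0.157 for Retn, 0.114 for Plin1 and 0.0103 for Lep. Fabp4, Cidea and Pparg did not overlap each other over the 6 hearts, while Cfd (2.0 to 8.56) overlapped Pparg (4.0 to 6.85). Cidec, Adipoq, Retn and Plin1 overlapped each other in their ranges over the hearts. The length chosen matters for Fabp4, whose exons cover 4489 bases with an annotated retained intron and 896 bases in the coding transcript, and over all exon bases its level was 84.6 per kilobase, still the first in this order. Fabp3, the fatty acid binding protein of heart muscle, was at 3602 per kilobase and above Fabp4 in every heart, and Fabp5, its relative in endothelium and skin, was at 30.8.

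**Figure D3:**
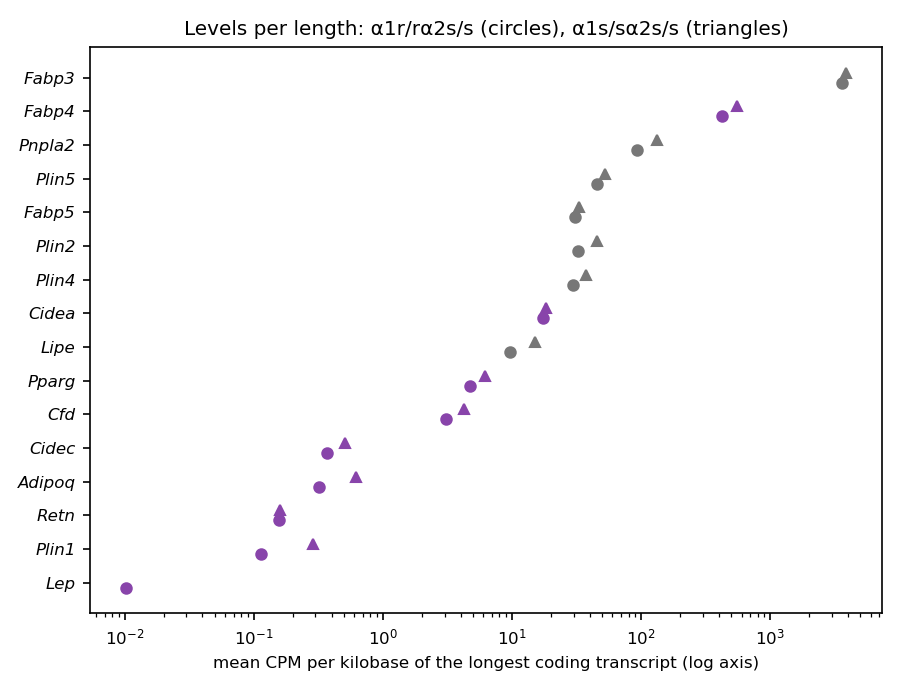
Mean CPM per kilobase of the longest coding transcript on a log axis, for adipocyte marker genes (purple) and related genes (grey), in α1r/rα2s/s (circles) and α1s/sα2s/s hearts (triangles). Lep has no triangle and Ucp1 no point, since their means were 0. Fabp4 was at 424 and 555 and Adipoq at 0.321 and 0.616.

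The remaining genes of the adipocyte were followed in further lists. Of 20 other white adipocyte genes 15 were tested and none passed in edgeR, while 1 did in DESeq2. The median log2 fold change was 0.05. In edgeR, 4 of the 15 were at an unadjusted p under 0.05, against 14.5% of all tested genes. Those with the smallest p were Me1, Fasn and Gpd1, of fat synthesis, with log2 fold changes of 0.27, 0.29 and 0.22 (edgeR, adjusted p = 0.0623, 0.197 and 0.225), and Me1 was the gene called by DESeq2. The other gene at an unadjusted p under 0.05 was Elovl6, which lengthens fatty acids, with a log2 fold change in the other direction of -0.86 (edgeR, adjusted p = 0.341). Acaca and Scd1, of the same synthesis, were at -0.22 and -0.27 (edgeR, adjusted p = 0.364 and 0.47), so the fat synthesis genes did not share a direction. Thrsp, Elovl6, Acaca and Scd1 were added after their values were seen. Car3, the carbonic anhydrase abundant in white fat, had 43, 101 and 60 counts in α1r/rα2s/s hearts and 167, 53 and 42 in α1s/sα2s/s hearts, with mouse 379 the highest as for Cfd. Pck1, of glyceride synthesis, had 27, 20 and 3 counts and 59, 6 and 20 counts, and Slc27a2 of the brown list had 8, 1 and 0 counts and 39, 3 and 0 counts. These 3 genes were picked after their values were seen, as those of both lists in which mouse 379 was furthest above the other hearts. Over the whole lists mouse 379 was not the usual highest heart. It was highest in 5 of the 20 white genes, as was mouse 381, and in 2 of the 11 brown genes with a count. Thrsp, of fat synthesis, was lowest in mouse 379, at 24.7 CPM against 25.6 to 40.3 CPM in the other hearts. Acvr1c, Slc7a10, Adrb3 and Lgals12, all known from fat, had at most 8 counts in any heart.

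Of 14 other brown adipocyte genes, 13 were matched by name and 7 were tested, and none passed (edgeR, 0 at an unadjusted p under 0.05, and 0 in DESeq2). Lhx8 and Otop1 were at 0 in all hearts, and Zic1 and Elovl3 had at most 2 counts in any heart. Among the tested genes, Cox7a1, Cox8b, Kcnk3 and Ppargc1a were at means of 757, 483, 241 and 108 CPM in α1r/rα2s/s hearts. Which cells these reads came from was not tested, so the values and the sum of this list are not a measure of brown fat. Ebf2, Cox8b and Ppargc1a, had log2 fold changes of -0.22, 0.05 and -0.06 (edgeR, adjusted p = 0.589, 0.772 and 0.812). The median over the tested genes of this list was -0.04.

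The lipid storage list holds droplet, lipase and fatty acid uptake genes that muscle and capillaries also use, and 24 of its 25 genes were tested. Of these 4 rose and 1 fell in α1s/sα2s/s hearts at an adjusted p under 0.05 in edgeR, with a median log2 fold change of 0.19 over the list. Of all tested genes, 1.44% passed in either direction and 0.780% passed as higher. Lipe, the hormone-sensitive lipase, was at 39.7, 37.7 and 29.6 CPM in α1r/rα2s/s hearts and 60.4, 53.3 and 55.3 CPM in α1s/sα2s/s hearts (log2 fold change 0.66, standard error 0.10, adjusted p = 0.00546). Its exons lie inside 4732471J01Rik on the other strand, a gene of 16 to 26 counts per heart. Pnpla2, the lipase that starts triglyceride breakdown, was at 245, 224 and 257 CPM and 354, 324 and 372 CPM (log2 fold change 0.53, standard error 0.08, adjusted p = 0.00293). Both were without overlap, and both kept the threshold with each heart left out in turn. Plin2, the droplet coat of muscle and other non-adipocytes, rose by 0.50 (adjusted p = 0.019), and Gpam, the first enzyme of triglyceride synthesis, rose by 0.33 (adjusted p = 0.0394). Lpin1, a phosphatase of the same path, fell by 0.31 (adjusted p = 0.0358), with 0.659% of all tested genes called as lower. With 1 heart left out, 2 or 3 genes of the list passed, and without mouse 379 these were 2. DESeq2 called 9 of the list, with 3.56% of all genes it adjusted called.

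**Figure D4:**
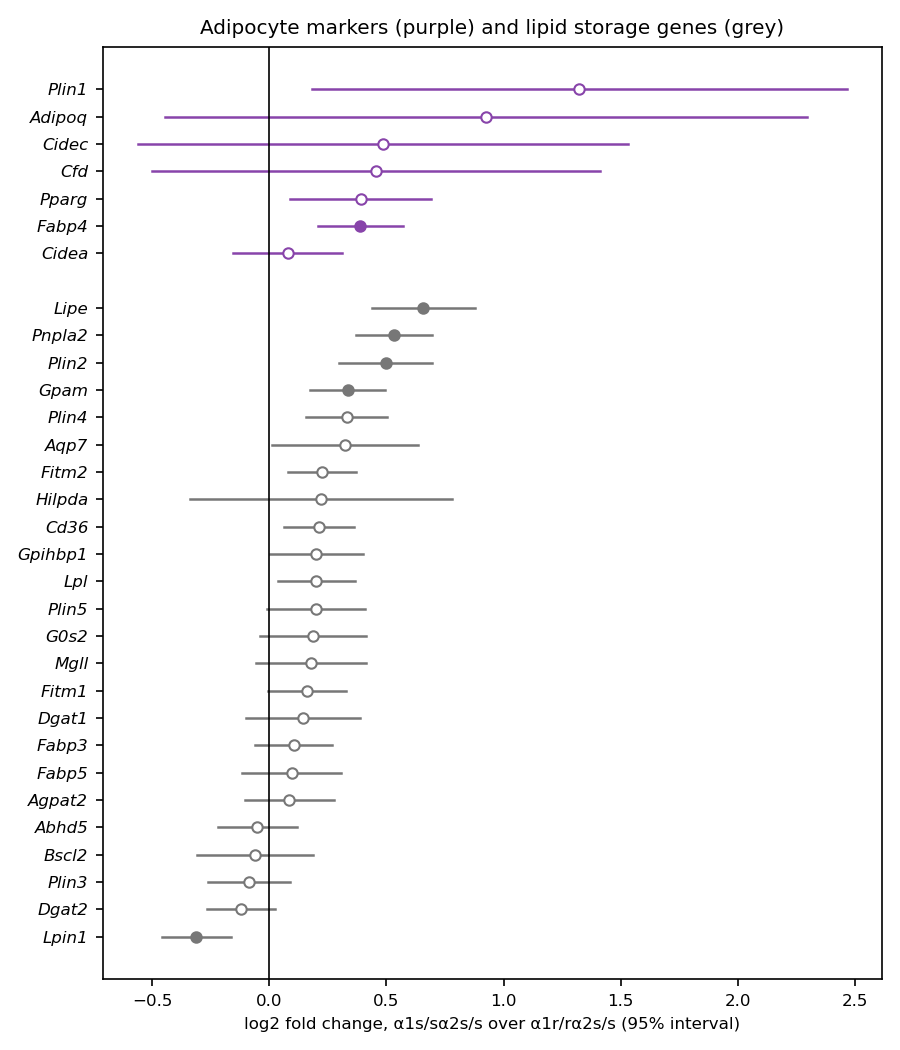
Log2 fold change of α1s/sα2s/s over α1r/rα2s/s hearts with 95% intervals from edgeR, for the 7 tested adipocyte marker genes (purple) and the 24 tested lipid storage genes (grey). Filled points passed an adjusted p under 0.05: Fabp4 at 0.39 and Lipe, Pnpla2, Plin2, Gpam and Lpin1. The intervals of Adipoq, Cidec, Cfd and Cidea include 0.

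Of 16 partners, relatives and upstream factors of Pparg, all tested, Srebf1 passed in edgeR and rose by 0.59 on the log2 scale (adjusted p = 0.00546, standard error 0.09). Srebf1 encodes a master factor of fatty acid synthesis and kept the threshold with each heart left out. Cebpd and Cebpb, which induce Pparg in fat cell precursors, were 0.63 and 0.62 higher on the log2 scale without passing (edgeR, adjusted p = 0.0665 and 0.0828). In the other direction, the coactivator Ppargc1b, the partner receptor Rxrg and the related receptor Ppara were at -0.35, -0.23 and -0.37 (edgeR, adjusted p = 0.129, 0.153 and 0.315), named after their values were seen. Over the list 9 genes were higher and 7 lower, and the median was 0.08. In edgeR, 8 of the 16 were at an unadjusted p under 0.05, against 14.5% of all tested genes. Of all tested genes, 1.44% passed the threshold. The count of 1 that passed was 2 in DESeq2, 5 without a filter, 3 without mouse 369, and 2 without mouse 370 or mouse 380.

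The genes on which the secreted members act were also measured. Of 7 receptor and adaptor genes of adiponectin and leptin none passed (edgeR, 1 at an unadjusted p under 0.05, 1 in DESeq2), with a median log2 fold change of 0.03. Adipor2, the adiponectin receptor linked to fatty acid oxidation, was at 0.26 (adjusted p = 0.0989), Lepr, the leptin receptor, at -0.35 (adjusted p = 0.454) and Jak2, its kinase, at 0.11 (adjusted p = 0.59, edgeR). Of 7 genes of the alternative complement pathway, in which Cfd acts, 6 were tested and none passed in edgeR or DESeq2, with a median of -0.14. In edgeR, 2 of the 6 were at an unadjusted p under 0.05, against 14.5% of all tested genes. Masp1, C3ar1 and C3 had log2 fold changes of 0.28, -0.43 and -0.18 (edgeR, adjusted p = 0.314, 0.33 and 0.428). Cfb, the substrate of factor D, had 3 counts in mouse 368 and 0 in each other heart.

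Markers of other cells in the sample were set beside these values. The 10 cardiomyocyte markers summed to 58887 to 72624 CPM in α1r/rα2s/s and 65145 to 70981 CPM in α1s/sα2s/s hearts, so the labelled tissue was present in each library, and none passed (edgeR and DESeq2, 0 at an unadjusted p under 0.05, median log2 fold change 0.08, Tnnt2, Actc1 and Tnni3 nearest at 0.16, -0.14 and 0.13). The 14 endothelial markers, given because endothelium also holds Fabp4, summed to 1508 to 1789 CPM and 1454 to 1658 CPM. None of them passed in edgeR or DESeq2, and 4 of the 14 were at an unadjusted p under 0.05 in edgeR, against 14.5% of all tested genes. The median was -0.08, with Kdr, Emcn and Rgcc nearest at -0.50, -0.31 and 0.32 (adjusted p = 0.0694, 0.125 and 0.155, edgeR). The part of endothelium in the Fabp4 values was not tested. The 6 atrial markers all had a log2 fold change under 0, with 48.4% of all tested genes above 0. They summed to 216, 281 and 175 CPM in α1r/rα2s/s hearts and 186, 154 and 176 CPM in α1s/sα2s/s hearts, so the genotypes overlapped. A single α1r/rα2s/s heart, mouse 369, was the highest in all 6 markers. None was past the threshold in edgeR and 1 was in DESeq2, with a median of -0.51. In edgeR, 3 of the 6 were at an unadjusted p under 0.05, against 14.5% of all tested genes. Myl7, Myl4 and Dkk3 had log2 fold changes of -0.55, -0.57 and -0.46 (edgeR, adjusted p = 0.0799, 0.0893 and 0.15). The part of atrial tissue in the results was not tested.

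Of 8 mesothelial markers, of the surface under which epicardial fat lies, 2 were tested and none passed (edgeR and DESeq2, 0 at an unadjusted p under 0.05, median -0.22, Wt1 -0.41 and Msln -0.04). Their sum was 5.82 to 10.5 CPM in α1r/rα2s/s and 5.03 to 8.64 CPM in α1s/sα2s/s hearts, with the second-highest value in mouse 379. Of 7 preadipocyte markers 6 were tested and none passed (edgeR, 1 at an unadjusted p under 0.05, 0 in DESeq2, median -0.06), with sums of 163 to 213 CPM and 166 to 191 CPM, and Dpp4, Icam1 and Pdgfra at -0.62, -0.30 and 0.14. Of 8 lymphoid markers 3 were tested and none passed (edgeR and DESeq2, 0 at an unadjusted p under 0.05, median -0.60, Cd4 -0.70 and Ms4a1 -0.30), with sums of 3.27 to 6.11 CPM and 1.69 to 5.37 CPM. Mouse 379 had the lowest lymphoid sum. None of 6 lung epithelium markers had counts enough to be tested, with sums of 0.239 to 0.382 CPM and 0.778 to 1.39 CPM. The lung sums did not overlap between genotypes and were highest in mouse 379, where Sftpc had 8 counts. The part of these cells in the fat markers was not tested.

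**Figure D5:**
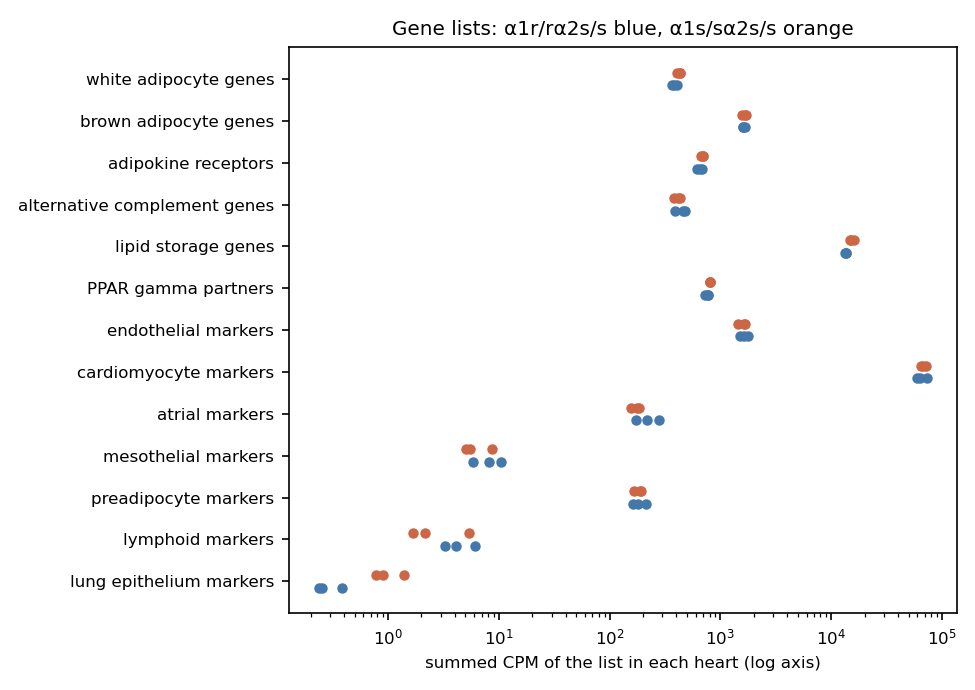
Summed CPM of each list of genes in each heart on a log axis, for α1r/rα2s/s (blue) and α1s/sα2s/s hearts (orange), 1 point per heart. Cardiomyocyte markers summed to 58887 to 72624 CPM over all hearts, and lung epithelium markers to at most 1.39 CPM.

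Gene counts do not show the genotypes, so each heart's genotype was taken from its label.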

How the data were processed

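RNA was measured in 6 mouse hearts, 3 of each genotype, grouped by the genotype in their labels. The authors deposited raw counts of reads per gene, which a sequencing company made from NovaSeq reads. The submitters' processing notes name fastp, STAR, featureCounts and mm10, and the strand setting is not given in the sources used here. A second deposited table, of the study's own DESeq2 comparison, was not used. Counts were analysed in R 4.3.3 with edgeR 4.0.16 (TMM, filterByExpr with a minimum count of 10 and total of 15, quasi-likelihood test, Benjamini-Hochberg adjustment over 14866 genes, threshold 0.05), and DESeq2 1.42.0 was an alternative. Log2 CPM used a prior count of 2. The standard error was the log2 fold change over the square root of F. In simulated data with 200 of 14866 genes changed by 1 on the log2 scale, edgeR recovered 84% and 2.89% of its calls were unchanged genes. The 200 were drawn only from genes above a floor on the expected mean count, and Adipoq, Plin1 and Cidec lie under it. The 84% therefore does not describe these members, nor changes smaller than 1. Of the 54532 genes, 53499 had the coordinates of GENCODE M21 (GRCm38). Alternatives were other scalings, filters and priors, and each heart left out. Genes named were the members, in each list those past the threshold and the 3 of smallest p and the 10 most like Adipoq, and some genes under this rule are not reported here. The members and lists were chosen with earlier results of these data known. The sources used here do not say how hearts were trimmed of fat. The edgeR and DESeq2 p-values set the difference between genotypes against the spread between these animals, and the exact p-values come from reordering the 6 hearts.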

Additional observations from a re-analysis of the deposited data

How the results depend on the processing

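With 3 hearts per genotype and 1 to 28 counts per heart for Adipoq, Plin1 and Cidec, only large differences could pass, and the intervals above cover what these data allow. The count of genes differing between genotypes, 214, was 618 without a filter, 400 in DESeq2 and from 80 to 158 with 1 heart left out. The members differing, 1, were 0 when scaled by library totals alone and from 0 to 1 with 1 heart left out. Scaling by library totals alone brought Fabp4 to 0.30 (adjusted p = 0.13, edgeR) and moved the median over all tested genes from -0.0078 to -0.091. It also turned the sign of Cidea (-0.0071), Cox8b (-0.030), Cenpb (-0.0028) and Cd81 (-0.028), none of which passed either way. With 1 heart left out, the sign turned for Cfd (-0.59 to 0.79), Cidec (-0.0040 to 0.75), Ppargc1a (-0.11 to 0.048), Msln (-0.43 to 0.98), Ms4a1 (-1.15 to 0.14) and Trim32 (-0.0071 to 0.20). The cause of these turns was not tested. With at least 10 counts asked of every heart, Adipoq and Plin1 were not tested. Fabp4 kept its direction in all 14 alternatives and its call in 8. Fits without 1 heart leave 2 in a group and share 1 estimate of the spread. Counts of the lipid storage list under the alternatives were chosen after seeing the data. No paired analysis was possible because the labels give the hearts of the genotypes no shared numbers, and numbers 1 to 3 in each group only name them.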
